A study of Mus musculus with 16 samples.

Results

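Ribosome biogenesis genes, the RNA polymerase I (Pol I) subunit genes and Myc were followed in mouse dendritic cells raised in normal or salty medium and then given LPS or not. The members were 37 named genes, taken where the array's annotation assigned a probe set to that gene alone. Such probe sets existed for 34 members out of 19272 genes so covered. No single-gene probe set was found for Nop2, Mrto4 and Noc2l, which are not analysed here. All 34 measured members passed the filter on low values, which required at least 4 arrays above a log2 value of 6.83, and 10236 genes did so in all.

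The cells came from the bone marrow of C57BL/6 mice and all received 10 ng/mL of GM-CSF, which drives marrow precursors to become myeloid cells. A culture at 290 mOsm/L (normal osmolarity) or at 450 mOsm/L (NaCl added from day 3) was harvested on day 7. It was then plated for 6 h with no LPS or with LPS at 10 ng/mL, a bacterial outer membrane component sensed by Tlr4. This gave 4 groups of 4 arrays, named by their osmolarity and by whether LPS was given, and the labels give the same 4 mice in each group. Salt exposure therefore lasted days and LPS exposure hours, so the sizes of their effects are not matched in time. Values are log2 microarray expression levels. In bulk RNA, fewer cells of a type and less RNA per cell cannot be told apart.

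Of the listed dendritic cell markers, Itgax (CD11c) had group means of 11.41 to 12.13 and the MHC class II gene H2-Ab1 of 13.28 to 13.4. Zbtb46 (6.8 to 7.48), Flt3 (6.1 to 7.3) and Batf3 (7.13 to 7.2) lay near the filter level. Cd209a (5.88 to 6.34), also on that list, was below it on every array. The macrophage genes Adgre1 (11.55 to 12.58) and C1qb (12.64 to 12.97) were also well expressed, so the cultures carried macrophage transcripts too. The neutrophil granule gene Ngp had a mean of 12.29 at 290 mOsm and 6.27 at 450 mOsm. Array medians ranged from 6.78 to 6.93.

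A ribosome begins in the nucleolus, where Pol I copies the ribosomal RNA genes into a long precursor. Small nucleolar ribonucleoproteins (snoRNPs) guide chemical modification of that precursor, the small subunit processome folds and cuts it, and separate assembly factors build the large and small subunits before export. Myc is a transcription factor widely known as an activator of these genes, and it binds DNA with its partner Max at the sequence CACGTG. In myeloid cells, LPS sensing is known to change growth and protein output within hours.

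Since CACGTG is the textbook Myc site, the members' promoters were searched for it. RefSeq promoter windows of GRCm38.p6, each from 250 bases before to 50 bases after a gene's start, were found for 28 of the 34 measured members, with 31 windows in all. Bop1, Fbl, Myc, Npm1, Rrp12 and Rrs1 had no entry. CACGTG, which reads the same on both strands, was in 6 of the 31 windows (19.4%) and in 7.15% of all 32851 windows. It was found in Wdr43, Utp20, Ltv1, Tsr1, Pes1 and Nle1, each time after the start, with its first base between positions 3 and 38 counted from 1 at the start. The sites of 3 members that carry results below are shown 5′ to 3′ on the gene's strand with the motif in capitals, because Tsr1 and Utp20 were lower after LPS while Wdr43 was higher.
Tsr1: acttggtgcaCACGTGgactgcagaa
Utp20: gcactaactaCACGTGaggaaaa
Wdr43: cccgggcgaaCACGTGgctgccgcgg
These windows lie at chr11:74898094-74898119 (plus strand) for Tsr1, chr10:88826765-88826787 (minus strand) for Utp20 and chr17:71616222-71616247 (plus strand) for Wdr43, in GRCm38.p6, just inside each annotated transcript start.

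The sequence CCGGAAG, the core recognised by ETS family factors, was also searched, on both strands (its reverse complement is CTTCCGG). It was in 9 of the 31 windows (29%) against 8.86% of all windows, in Gar1, Nhp2, Nolc1, Polr1e, Heatr1, Ltv1, Tsr1, Nip7 and Noc3l. The last 60 bases before the start are shown for 3 of them in which the motif lies close to the start. These were picked after the data were seen.
Heatr1: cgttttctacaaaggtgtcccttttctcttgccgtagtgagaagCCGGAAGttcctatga
Nolc1: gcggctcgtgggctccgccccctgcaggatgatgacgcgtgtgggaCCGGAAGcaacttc
Nhp2: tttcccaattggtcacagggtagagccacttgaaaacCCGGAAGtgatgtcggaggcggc
They lie at chr13:12395315-12395374 for Heatr1, chr19:46075787-46075846 for Nolc1 and chr11:51619713-51619772 for Nhp2, all on the plus strand of GRCm38.p6, immediately upstream of the annotated start. The palindromic NRF1 core, searched with any base at its variable position, was in 9.68% of member windows and 4.6% of all, and TATAAA (reverse complement TTTATA) in 6.45% and 13.6%. Member windows were richer in G and C, with a median of 57.3% against 52.7% for all windows. A motif match describes these letters only. For the 6 members with CACGTG, the log2 change after LPS at 290 mOsm ran from -1.2 to 0.59, and for the 9 with CCGGAAG from -1.07 to -0.42. Over all 34 members it ran from -1.94 to 0.59, and 31 were called lower. Whether either motif relates to the change was not tested.

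Across the whole set the members were highest in untreated cells and lowest in salt-raised cells given LPS. The mean log2 level of the 34 members was 8.62 ± 0.09 (SD, n = 4) at 290 mOsm and 8.28 ± 0.04 at 450 mOsm. In the LPS-treated cells it was 7.91 ± 0.02 at 290 mOsm and 7.75 ± 0.05 at 450 mOsm. The 4 groups did not overlap: their ranges were 8.49 to 8.69, 8.22 to 8.32, 7.88 to 7.92 and 7.68 to 7.79. By group mean, 30 of 34 members were highest at 290 mOsm and 25 were lowest at 450 mOsm with LPS. The order of the means above (untreated, salt alone, LPS alone, salt plus LPS) held for 22 members. For Ncl, Npm1 and Noc3l, LPS alone and salt alone changed places in that order. Only Wdr43 and Rrs1 were highest at 290 mOsm with LPS, and only Bop1 and Polr1e were highest at 450 mOsm. The order of the groups was not counted over all genes, so how particular it is to the members is not shown.

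**Figure D1:**
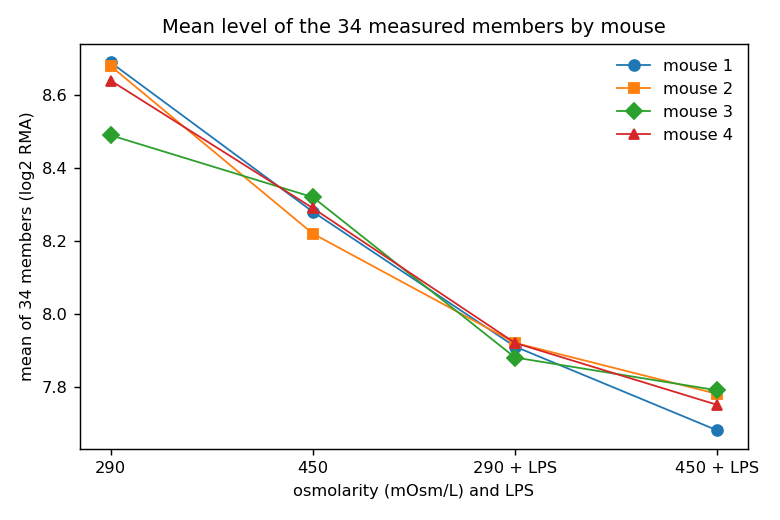
Mean log2 level of the 34 measured members on each array, with a line for each of the 4 mice across the 4 groups (x axis: osmolarity in mOsm/L and LPS). Each mouse steps down from 290 mOsm to 450 mOsm and to both LPS groups, and the 290 mOsm array of mouse 3 (8.49) is the lowest of its group.

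**Figure D2:**
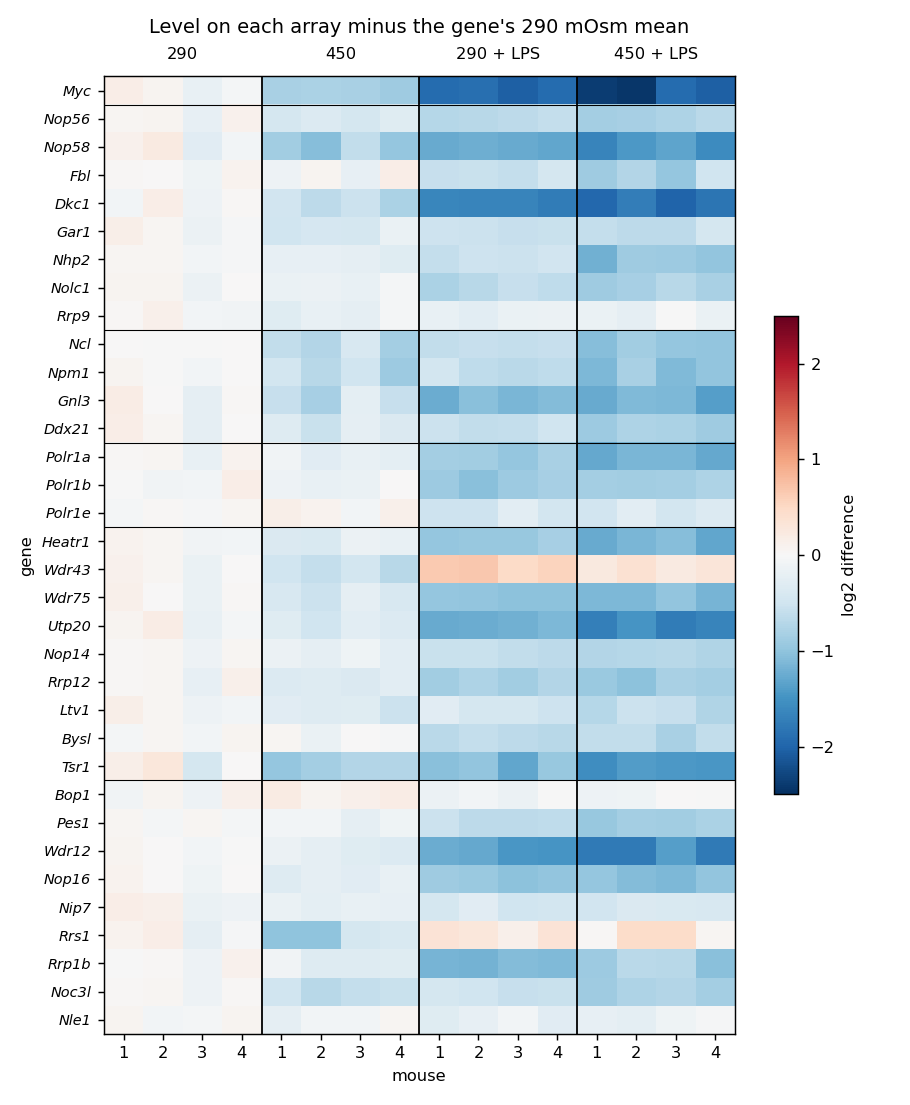
Level of each member (rows, grouped by role with black lines) on each of the 16 arrays (columns, by group and mouse) minus the gene's own mean at 290 mOsm, in log2 units from blue (lower) to red (higher). Most rows darken to blue from left to right, while Wdr43 and Rrs1 turn red with LPS.

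In resting cells, salt was accompanied by lower levels of most members. Limma called 26 of 34 members lower (76.5%) and 0 higher at an adjusted p under 0.05, against 23.7% of all 10236 genes called lower, 20.6% called higher and 44.3% called in either direction. The members' median log2 change was -0.29, and that of all genes was 0. In 23 members the 450 mOsm arrays all lay below the 290 mOsm arrays, which 20.4% of all genes did. No member fell by as much as 2-fold, and of all 10236 genes only 114 did. The count of lower members was 23 without mouse 1, 19 without mouse 2, 27 without mouse 3, whose 290 mOsm array had the lowest member mean, and 22 without mouse 4.

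Myc stood at 9.69, 9.59, 9.34 and 9.48 in mice 1 to 4 at 290 mOsm and at 8.72, 8.73, 8.71 and 8.63 at 450 mOsm. The groups were well apart and the salt arrays lay close together. The gene fell by 0.83 ± 0.10 on the log2 scale (limma's standard error here and below, n = 4 mice per group), 1.78-fold (adjusted p = 2.17e-06), and was lower in 4 of 4 mice.

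Among the box C/D and H/ACA snoRNP genes, 6 of 8 fell. Nop58, a core protein of the box C/D particles that guide 2′-O-methylation, fell most of all members, by 0.88 ± 0.10 (adjusted p = 2.86e-06). Its levels were 9.66, 9.77, 9.27 and 9.48 at 290 mOsm and 8.68, 8.48, 8.93 and 8.58 at 450 mOsm, with no overlap. The pseudouridine synthase gene Dkc1 fell by 0.61 ± 0.08 (adjusted p = 6.02e-06), Nop56 by 0.38 ± 0.07 (adjusted p = 0.000183) and Gar1 by 0.38 ± 0.07 (adjusted p = 0.000553). Fbl, the methyltransferase of the same box C/D particles, was at 8.39, 8.37, 8.26 and 8.46 and then at 8.24, 8.44, 8.16 and 8.54. Its 2 groups overlapped, and the difference was -0.03 ± 0.09 (adjusted p = 0.835).

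All 4 nucleolar scaffold and chaperone genes fell. The nucleolin gene Ncl, whose product packs nucleolar RNA, was at 10.59, 10.57, 10.56 and 10.58 at 290 mOsm and at 9.95, 9.84, 10.17 and 9.73 at 450 mOsm. It fell by 0.65 ± 0.07 (adjusted p = 9.36e-07). The nucleophosmin gene Npm1 fell by 0.64 ± 0.09 (adjusted p = 1.54e-05), from 10.49, 10.41, 10.36 and 10.44 to 9.96, 9.74, 9.92 and 9.51. Another 3 probe sets name Npm1 together with Gm15484 and were not used. Whether the probe set used also detects that gene was not tested. Gnl3 (nucleostemin, a nucleolar GTPase) fell by 0.56 ± 0.10 and the helicase gene Ddx21 by 0.37 ± 0.08, with almost no difference in mouse 3 (-0.02 and -0.01).

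Pol I subunits had the smallest median of the role groups (-0.12), with 1 of 3 lower. Polr1a, the largest subunit, fell by 0.20 ± 0.06 (adjusted p = 0.0183), with arrays at 8.89, 8.91, 8.67 and 8.94 and at 8.76, 8.56, 8.67 and 8.61, which overlapped. Polr1b, the second largest subunit, gave -0.12 ± 0.06 (adjusted p = 0.137) and Polr1e gave 0.08 ± 0.07 (adjusted p = 0.384). The Polr1a call was lost without mouse 2 (-0.15), without mouse 4 (-0.16), without the 290 mOsm array of replicate 2 or 4 and without the 450 mOsm array of replicate 2.

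In the small subunit processome and 40S assembly group 8 of 9 fell, with Bysl (-0.04 ± 0.06, adjusted p = 0.594) the exception. Tsr1, a late 40S assembly factor, fell by 0.82 ± 0.12 (adjusted p = 2.15e-05), from 8.66, 8.81, 8.08 and 8.52 to 7.55, 7.67, 7.78 and 7.78. Wdr43 fell by 0.56 ± 0.07 and the other 6 by 0.19 to 0.38. Of 9 measured 60S assembly genes 6 fell, led by Rrs1 at -0.71 ± 0.14 (adjusted p = 0.000774) and Noc3l at -0.58 ± 0.06 (adjusted p = 4.46e-07). Rrs1 was at 7.58, 7.64, 7.25 and 7.46 and then at 6.47, 6.48, 7.05 and 7.11, with differences of -1.12 and -1.16 in mice 1 and 2 and of -0.20 and -0.35 in mice 3 and 4. Its 450 mOsm mean of 6.78 is below the filter level. Bop1 (0.15 ± 0.06, adjusted p = 0.0579), Pes1 (-0.11 ± 0.05, adjusted p = 0.0748) and Nle1 (-0.08 ± 0.07, adjusted p = 0.335) did not pass. Bop1 and Pes1 encode partners in the same PeBoW complex, whose other subunit gene Wdr12 fell by 0.26 ± 0.08 (adjusted p = 0.0176). Of the 60S genes that fell, the call of Nip7 (-0.20) was lost in 8 of 30 alternatives, that of Wdr12 in 4 and that of Rrp1b in 2, each of them without mouse 2 and at least 1 other setting. Elsewhere the calls of Rrp9 (lost in 6 alternatives), Heatr1 (in 2) and Nop14 (in 2) were also lost without mouse 2. Bop1 passed as higher in 8 alternatives, among them with the mouse as a replicate block (0.15), under quantile normalization (0.20) and under cyclic loess (0.19).

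Of 92 tested ribosome assembly factors outside the set, 46 fell and 2 rose (median -0.18), with Gtpbp4 at -0.61 ± 0.08 and Rrp8 at -0.60 ± 0.08 lowest and Surf6 (0.19 ± 0.06) and Dhx37 (0.18 ± 0.05) higher. Of 9 other Pol I subunits and factors, 3 fell and 0 rose, including Taf1a of the promoter selectivity complex (-0.69 ± 0.09) and the initiation factor gene Rrn3 (-0.38 ± 0.06). In the RNA exosome, which trims the precursor, 4 of 12 fell and 0 rose. Of 45 cytosolic ribosomal protein genes, 15 fell and 0 rose, with a median of -0.08. Among all genes, 23.7% were called lower and 20.6% higher. Myc's partner Max fell by 0.23 ± 0.05 and its antagonist Mxd1 by 0.42 ± 0.11, while the paralogue Mycl rose by 0.30 ± 0.08.

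Other markers moved with salt as well. All 15 measured neutrophil markers of 16 listed were lower, and their summed linear signal was 27800 to 36500 at 290 mOsm and 5740 to 6500 at 450 mOsm. All 6 tested mast cell and basophil markers were lower, with summed signals over 10 genes of 1180 to 1940 and 666 to 731. Dendritic cell markers summed to 46000 to 47900 and 47300 to 49200, and macrophage markers to 41000 to 42700 and 37300 to 38900. Of 25 cell cycle genes, 9 rose and 3 fell. The part of these shifts in the ribosome biogenesis result was not tested. With each array centred on its median, 1335 genes were called higher and 3047 lower, in place of 2104 and 2426, and members numbered 0 and 29.

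**Figure D3:**
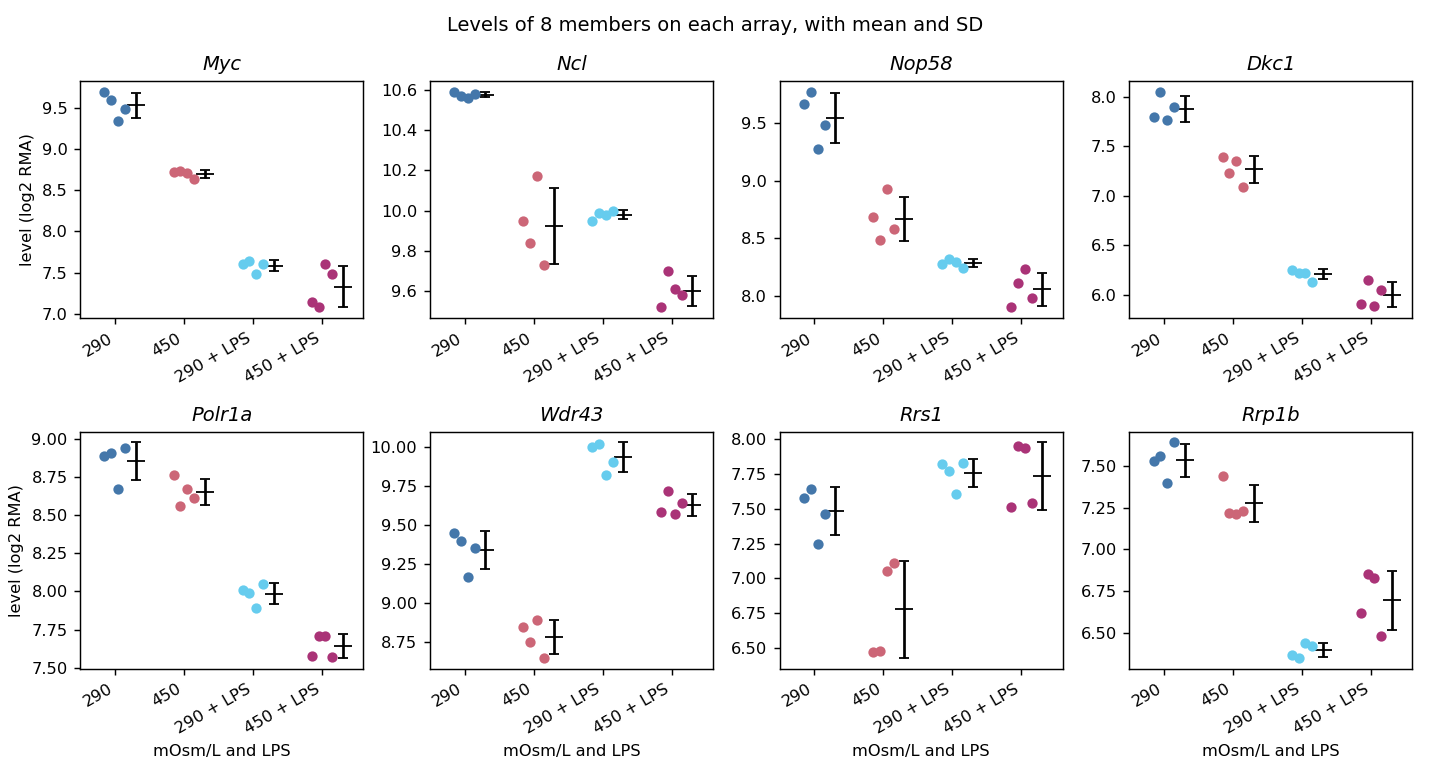
Log2 level of 8 members on each array (points, mice 1 to 4 from left to right within a group) with the group mean and SD (n = 4) beside them; the y axes differ between panels and do not start at 0. Myc, Nop58 and Dkc1 step down through the 4 groups, Wdr43 is higher in both LPS groups, Rrs1 is lowest at 450 mOsm, and Rrp1b is higher at 450 mOsm with LPS than at 290 mOsm with LPS.

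Salt was next compared in LPS-treated cells (450 against 290 mOsm, both with LPS). Limma called 15 of 34 members lower (44.1%) and 1 higher, against 21.8% of all genes lower and 16.8% higher (38.6% either way). The members' median was -0.17 and the median of all genes was 0. Of these 15 members, 14 were also called lower without LPS (93.3% of the 15, and 53.8% of the 26), where 1176 genes in all were called lower in both (52.7% and 48.5%). Without mouse 1 the count fell to 9. In 14 members the salt arrays all lay below the others, as in 22.3% of all genes, and in 1 they all lay above, as in 17.1%.

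Nhp2, a core protein of the H/ACA particles, fell most, by 0.46 ± 0.06 (adjusted p = 1.33e-05), from 8.29, 8.36, 8.34 and 8.40 to 7.68, 8, 7.97 and 7.90. Utp20, a large processome scaffold, fell by 0.44 ± 0.08 (adjusted p = 0.000201), from 7.55, 7.56, 7.61 and 7.68 to 7.10, 7.33, 7.06 and 7.16. Neither gene's groups overlapped. Npm1 fell by 0.40 ± 0.09 (adjusted p = 0.00127), Tsr1 by 0.38 ± 0.12 (adjusted p = 0.0138) and Ncl by 0.37 ± 0.07 (adjusted p = 0.000356). The Tsr1 call was lost without mouse 1 (-0.34, adjusted p = 0.0826) and without mouse 4 (-0.34, adjusted p = 0.0899), while those of Nhp2, Utp20, Npm1 and Ncl held in the alternatives run. Ncl went from 9.95, 9.99, 9.98 and 10 to 9.52, 9.70, 9.61 and 9.58.

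Polr1a fell here by 0.34 ± 0.06 (adjusted p = 0.000453), from 8.01, 7.99, 7.89 and 8.05 to 7.58, 7.71, 7.71 and 7.57, without overlap. Polr1b (0.09 ± 0.06, adjusted p = 0.294) and Polr1e (0.05 ± 0.07, adjusted p = 0.582) did not pass. Myc was at 7.61, 7.64, 7.49 and 7.60 without salt and at 7.15, 7.09, 7.60 and 7.48 with it. Mice 1 and 2 were clearly lower, mouse 4 slightly so and mouse 3 was not. Its change of -0.26 ± 0.10 (adjusted p = 0.0401) was lost with the mouse as a replicate block (adjusted p = 0.0573) and in 12 of the 30 alternatives, where adjusted p reached 0.276 without mouse 2. Without mouse 1 it was 0.207 and without mouse 4 it was 0.0631. It was also lost without the 290 mOsm with LPS array of replicate 1, 2 or 4, and without the 450 mOsm with LPS array of replicate 1 or 2. Fbl (-0.23 ± 0.09, adjusted p = 0.0656) passed in 6 alternatives, including the mouse as a replicate block.

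The exception was Rrp1b, a nucleolar protein of 60S assembly that also occurs on chromatin. It was at 6.37, 6.35, 6.44 and 6.42 at 290 mOsm with LPS. In salt-raised cells given LPS it was at 6.62, 6.85, 6.83 and 6.48, with no overlap. With salt it was thus higher by 0.30 ± 0.08 (adjusted p = 0.00489) in LPS-treated cells. In resting cells it was instead lower with salt, by 0.26 ± 0.08 (adjusted p = 0.0126), and its groups overlapped there. That call as lower was lost without mouse 2 (-0.23, adjusted p = 0.0741) and without mouse 4 (-0.21, adjusted p = 0.0608). Both LPS group means (6.39 and 6.7) were below the filter level. The higher value with salt in LPS-treated cells missed the threshold without mouse 2 (0.24, adjusted p = 0.0686).

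Wdr12 fell by 0.30 ± 0.08 (adjusted p = 0.00738) by the probe set with the higher mean, while a dimmer second probe set differed by 0.12 in the other direction. Averaging both left -0.09, which did not pass, so the direction for Wdr12 depends on the probe set here. Both probe sets were lower with salt in resting cells (-0.26 and -0.32) and after LPS at 290 mOsm (-1.37 and -1.57) and at 450 mOsm (-1.41 and -1.13). By role, 5 of 9 small subunit genes, 3 of 4 scaffold genes, 2 of 8 snoRNP genes and 3 of 9 measured 60S genes fell. Of all genes 21.8% were called lower, so the snoRNP share (25%) was near that of all genes. The 60S share was 33.3%. Calls were lost for Dkc1 in 9 alternatives, Ltv1 in 4, Wdr12 in 3, Ddx21 in 2 and Heatr1 in 1. Both Dkc1 means compared here (6.2 at 290 mOsm and 6 at 450 mOsm) were below the filter level.

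Outside the set, 25 of 92 assembly factors fell and 3 rose (median -0.08), against 21.8% of all genes lower and 16.8% higher. Pwp1 was at -0.51 ± 0.07 and Rsl24d1 at -0.47 ± 0.07, while Rcl1 (0.80 ± 0.08) and Utp4 (0.36 ± 0.07) were higher. Rrn3 fell by 0.41 ± 0.06 and Max by 0.43 ± 0.05. Of the 45 ribosomal protein genes, 15 fell and 0 rose (median -0.10), and in the exosome 3 of 12 fell and 0 rose. Neutrophil markers were lower in 13 of 15, with summed signals of 37200 to 46100 and 15700 to 16700, and macrophage markers in 8 of 11, with 40000 to 41600 and 30900 to 33700. Dendritic cell markers were higher in 5 of 12 and lower in 2, with 48000 to 50300 and 53800 to 55600. Of 6 tested mast cell and basophil markers 3 were lower and 1 higher, with sums of 2410 to 4060 and 1600 to 1870. Their part in the result was not tested.

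**Figure D4:**
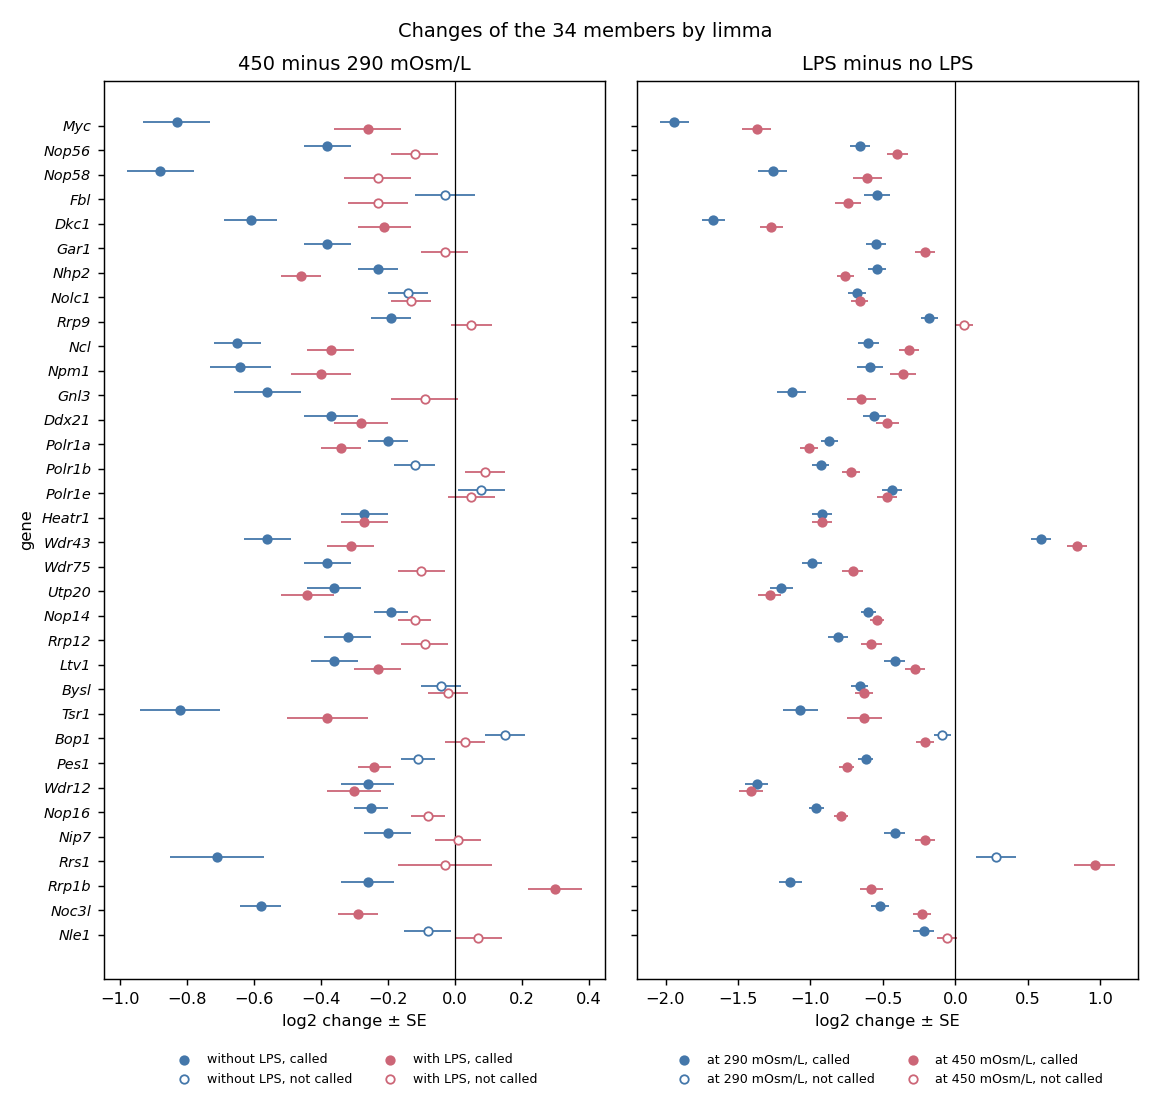
Log2 change of each of the 34 members with limma's standard error, for salt (left, 450 minus 290 mOsm/L, without and with LPS) and for LPS (right, at 290 and 450 mOsm/L); filled points passed an adjusted p of 0.05 and open points did not. On the left 26 points without LPS and 15 with LPS are filled below 0, and on the right Wdr43 and Rrs1 stand apart above 0.

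LPS without added salt gave the largest median change of the set among the comparisons made (-0.64, beside -0.60 for LPS at 450 mOsm). The order of these 2 changed under the stricter filter (-0.61 and -0.62) and without mouse 2 (-0.63 and -0.65). Under cyclic loess they were equal (-0.49). LPS at 290 mOsm shares the 290 mOsm arrays with the salt comparison in resting cells. Limma called 31 of 34 members lower (91.2%) and 1 higher, against 47.1% and 26.4% of all genes (73.5% either way). The median of the members was -0.64 and that of all genes was -0.11. The changes spanned -1.94 to 0.59, and 8 of 34 members fell at least 2-fold, as did 569 of all 10236 genes. In 30 members the LPS arrays all lay below the others, as in 44.5% of all genes, and in 1 they all lay above, as in 24.5%. Cyclic loess, which brings the median of all genes from -0.113 to 0.017, gave 3857 genes higher and 3736 lower in place of 2702 and 4819. It left 29 members lower and 2 higher with a median of -0.49.

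Myc fell by 1.94 ± 0.10, 3.84-fold (adjusted p = 2.26e-12), to the levels near 7.6 given above. Dkc1 fell 3.19-fold (1.67 ± 0.08 lower on the log2 scale, adjusted p = 8.77e-13). It went from 7.80, 8.05, 7.76 and 7.90 to 6.25, 6.22, 6.22 and 6.13, which is below the filter level. Wdr12 fell by 1.37 ± 0.08 (adjusted p = 4.3e-11) and Nop58 changed by -1.26 ± 0.10 (adjusted p = 2.93e-09), the latter to 8.28, 8.32, 8.29 and 8.24. Utp20 (-1.20 ± 0.08), Rrp1b (-1.14 ± 0.08), Gnl3 (-1.13 ± 0.10) and Tsr1 (-1.07 ± 0.12) completed the 2-fold falls.

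All 3 Pol I subunits fell with LPS. Polr1b fell by 0.93 ± 0.06 (adjusted p = 2.33e-10), from 7.51, 7.43, 7.45 and 7.68 to 6.60, 6.47, 6.60 and 6.69. Polr1a fell by 0.87 ± 0.06 (adjusted p = 9.07e-10) and Polr1e by 0.44 ± 0.07 (adjusted p = 1.3e-05). With LPS the means of Polr1b (6.59) and Polr1e (6.53) were below the filter level, as were those of Dkc1 (6.2) and Rrp1b (6.39). The sizes of all these falls are less certain. Every snoRNP gene fell, including Fbl at -0.54 ± 0.09 (adjusted p = 4.83e-05), and the smallest change was that of Rrp9 at -0.18 ± 0.06 (adjusted p = 0.0168). All 4 scaffold genes fell, with Ncl at -0.60 ± 0.07 (adjusted p = 3.84e-07) and Npm1 at -0.59 ± 0.09 (adjusted p = 6.53e-06). The calls of Rrp9 (-0.10 and -0.11) and of Nle1 (-0.22 ± 0.07; -0.10 and -0.12) were lost under quantile normalization and cyclic loess. Without mouse 1 both were lost too (-0.17 each), and Rrp9 was lost without mouse 2 (-0.11) and without the 290 mOsm or 290 mOsm with LPS array of replicate 2.

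Wdr43 went the other way. This processome protein gene was at 9.45, 9.40, 9.17 and 9.35 without LPS and at 10, 10.02, 9.82 and 9.90 with it. It rose in 4 of 4 mice by 0.59 ± 0.07 (adjusted p = 3.18e-07), while Wdr75, which encodes another subunit of the same UtpA complex, fell by 0.99 ± 0.07 (adjusted p = 2.6e-10). Rrs1 was higher in 4 of 4 mice by 0.28 ± 0.14 without passing (adjusted p = 0.0911). It passed as higher under quantile normalization (0.41) and cyclic loess (0.40). Bop1 was the other member not called (-0.09 ± 0.06, adjusted p = 0.171).

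The assembly factors outside the set had 65 of 92 lower and 12 higher (median -0.39), against 47.1% and 26.4% of all genes. Utp14a (-1.22 ± 0.07) and Nol8 (-1.17 ± 0.06) fell most. Tma16 rose by 2.93 ± 0.15, from a mean of 8.33 to 11.26, and Rcl1 by 1.46 ± 0.08. Of the other Pol I factors 5 of 9 fell and 0 rose, and of the exosome genes 9 of 12 fell and 0 rose. Ribosomal protein genes had 39 of 45 lower and 1 higher, with a median of -0.28. Rpl10a fell by 0.59 ± 0.05, while Rps27l, a p53-responsive relative of Rps27, rose by 0.75 ± 0.07.

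Myc's network shifted in both directions. The antagonist gene Mxd1 rose by 1.96 ± 0.11, from 9.13 to 11.09, and Max, the partner shared by Myc and its antagonists, rose by 1.25 ± 0.05. Mxd4 fell by 2.17 ± 0.08, from 10.23 to 8.06, and Mnt by 0.74 ± 0.05. In all, 3 of 10 tested partners and antagonists rose and 4 fell. Of 25 cell cycle genes, 19 fell and 3 rose, with Bub1 at -1.36 ± 0.14 and Ccna2 at -1.03 ± 0.11, against a rise of 5.02 ± 0.09 for Ccnd2. Neutrophil markers had 6 of 15 higher and 2 lower in this comparison.

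At 450 mOsm LPS gave a similar picture. Limma called 30 of 34 members lower (88.2%) and 2 higher, against 45.3% and 26.4% of all genes (71.8% either way), with a median of -0.60 beside -0.09 for all genes. Of these 30 members, 29 were also lower at 290 mOsm (96.7% of the 30, and 93.5% of the 31), and 4135 genes were lower in both (89.1% and 85.8%). In 28 members the LPS arrays all lay below the others, as in 41.8% of all genes, and in 2 they all lay above, as in 24.4%. Cyclic loess gave 3722 genes higher and 3660 lower in place of 2707 and 4641. It left 25 members lower and 3 higher, and the calls for Bop1, Gar1, Nip7, Noc3l and Ltv1 were lost under it and under quantile normalization.

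The lowest values were those of Wdr12 (-1.41 ± 0.08, adjusted p = 2.42e-11), Myc at -1.37 ± 0.10 (adjusted p = 3e-10), Utp20 at -1.28 ± 0.08 (adjusted p = 3.37e-11) and Dkc1 at -1.27 ± 0.08 (adjusted p = 4.2e-11). For Wdr12 the other probe set gave -1.13 and the mean of both -1.27, which is less than the change of Myc, and its mean of 6.63 at 450 mOsm with LPS is below the filter level. Polr1a fell by 1.01 ± 0.06, Polr1b by 0.72 ± 0.06 and Polr1e by 0.47 ± 0.07. The means of Dkc1 (6), Polr1b (6.68) and Polr1e (6.58) at 450 mOsm with LPS also lay below the filter level. Fbl fell by 0.74 ± 0.09, Npm1 by 0.36 ± 0.09 and Ncl by 0.32 ± 0.07. The Npm1 and Gar1 arrays overlapped between the groups although both genes passed. Wdr43 rose by 0.84 ± 0.07 (adjusted p = 2.65e-09), from 8.85, 8.75, 8.89 and 8.65 to 9.58, 9.72, 9.57 and 9.64. Rrs1 rose by 0.96 ± 0.14 (adjusted p = 8.68e-06), to 7.51, 7.95, 7.94 and 7.54, which is the range seen at 290 mOsm with LPS (7.61 to 7.83) or slightly beyond it. Rrp9 (0.06 ± 0.06, adjusted p = 0.441) and Nle1 (-0.06 ± 0.07, adjusted p = 0.418) did not pass.

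Of the 92 other assembly factors 62 fell and 15 rose (median -0.31), against 45.3% and 26.4% of all genes. Utp14a at -1.15 ± 0.07 and Nat10 at -1.09 ± 0.06 were lowest. Tma16 rose by 3.09 ± 0.15 and Rcl1 by 2.47 ± 0.08. Ribosomal protein genes had 40 of 45 lower and 1 higher (median -0.28), and exosome genes 7 of 12 lower and 0 higher. Mxd1 rose by 2.54 ± 0.11 and Max by 1.06 ± 0.05, while Mxd4 fell by 2.11 ± 0.08. Cell cycle genes had 18 of 25 lower and 4 higher, and neutrophil markers 9 of 15 higher and 2 lower, with summed signals that went from 5740 to 6500 up to 15700 to 16700. Among those, Lcn2 alone went from a mean of 7.96 to 13.41.

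The last comparison asked whether salt and LPS acted independently, by the difference between the LPS change at 450 mOsm and that at 290 mOsm. Limma called 9 of 34 members with a positive difference (26.5%) and 0 with a negative one, against 10.7% and 10.4% of all genes (21.1% either way). The median of the members was 0.21 and that of all genes was 0. For members that fell under each treatment alone, a positive difference means that the drop under both together was smaller than the sum of the single drops. Among the members called here, both LPS means of Dkc1 (6.2 and 6) and of Rrp1b (6.39 and 6.7) were below the filter level. So was the 450 mOsm mean of Rrs1 (6.78). Whether low signal shaped their differences was not tested. The count was 5 without mouse 1 and 3 without mouse 2.

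Rrs1 differed by 0.68 ± 0.20 (adjusted p = 0.0223), Nop58 by 0.65 ± 0.15 (adjusted p = 0.00323), Myc by 0.57 ± 0.13 (adjusted p = 0.00472) and Rrp1b by 0.56 ± 0.11 (adjusted p = 0.0011), each positive in 4 of 4 mice. For Nop58 the LPS change was -1.26 at 290 mOsm and -0.61 at 450 mOsm. For Myc it was -1.94 and -1.37. Rrs1 did not fall with LPS: its change was 0.28 at 290 mOsm, which was not called, and 0.96 at 450 mOsm. The calls of Nop58, Myc and Rrp1b held under every alternative in which they were tested, with adjusted p at most 0.0489, 0.0468 and 0.0305. Rrs1 was lost without mouse 1 (adjusted p = 0.0697), without mouse 2 (0.221), without the 450 mOsm array of replicate 2 (0.0526) and without the 450 mOsm with LPS array of replicate 3 (0.0504).

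Gnl3 (0.47 ± 0.15), Dkc1 (0.41 ± 0.11), Gar1 (0.35 ± 0.11), Noc3l (0.29 ± 0.08) and Wdr75 (0.28 ± 0.10) also passed. The call of Gnl3 was lost in 8 alternatives (adjusted p = 0.167 without mouse 1, 0.154 without mouse 2 and 0.0658 without mouse 4). Gar1 was lost in 5 (0.147 without mouse 1 and 0.121 without mouse 2). Dkc1 was lost in 3 (0.125 without mouse 2 or mouse 4, and 0.063 under quantile normalization), and Noc3l in 2 (0.168 without mouse 2 and 0.0756 without mouse 4). Wdr75 was lost in 21 alternatives, among them the replicate block (adjusted p = 0.0559). Pol I subunits did not pass, with Polr1a at -0.14 ± 0.09 (adjusted p = 0.325), Polr1b at 0.20 ± 0.09 (adjusted p = 0.119) and Polr1e at -0.02 ± 0.10 (adjusted p = 0.897). Neither did Ncl (0.28 ± 0.10, adjusted p = 0.0529), Npm1 (0.23 ± 0.12, adjusted p = 0.206) or Fbl (-0.20 ± 0.13, adjusted p = 0.326). With the replicate block Polr1b, Tsr1 (0.44) and Nop56 (0.26) passed. Among the 92 other assembly factors 11 were positive (12%) and 3 negative, against 10.7% and 10.4% of all genes. Rcl1 was at 1.01 ± 0.11 and Gtpbp4 at 0.51 ± 0.11, while Rsl24d1 (-0.36 ± 0.09) and Pwp1 (-0.29 ± 0.10) were negative. For Rcl1 the difference is a larger rise with LPS (1.46 at 290 mOsm and 2.47 at 450 mOsm). None of the 45 ribosomal protein genes was called by limma.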

How the data were processed

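The 16 samples, 4 per group, were each run on a Mouse Gene ST array (Affymetrix). The deposited values are log2 intensities made by the authors with RMA in the oligo package, per the submitters' processing notes. For versions and the genome build: not given in the sources used here. This method equalises arrays, so a change shared by most genes would be reduced, and the number of arrays limits the precision.

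Of 22549 probe sets, 20646 had 1 gene symbol in the array's annotation, 551 had several and 1352 had none. Among a gene's own probe sets the brightest on average was kept, and genes needed 4 arrays above 6.83, the median of all values. One mean per group was fitted to 10236 genes with limma 3.58.1 (R 4.3.3), with 12 residual degrees of freedom and Benjamini-Hochberg adjustment over all genes at 0.05. The script was tested on simulated data. Figures were drawn with matplotlib 3.10.9.

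The labels give the same 4 mice in every group, so replicate numbers pair the samples. Over 24 pairs of arrays of the same mouse, deviations from the group means correlated with a median r of 0.0953 (-0.146 to 0.433). For arrays of different mice in different groups the median r was -0.0351. Nothing says whether the arrays of a group differ in more than the mouse.

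The members and gene lists were chosen with earlier results of these data known. Named in full were Myc, Ncl, Npm1, Fbl, Polr1a, Polr1b, Polr1e and the 4 most positive and 4 most negative called members of each comparison. From each other list up to 2 called genes each way could be named, and not all of these are named here. Genes named beyond that, the motifs other than CACGTG and the sequences shown for CCGGAAG were chosen after their values were seen. Alternatives were the filter, the probe set rule, quantile, loess and median scaling, the variance model, the mouse as a block, the groups fitted and leaving out mice or arrays. Ribosomal protein genes have many near-identical copies, so only 45 of 81 had a probe set of their own.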

Additional observations from a re-analysis of the deposited data

Results flagged for a closer look

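Of 140 groups of 4 arrays tested for a single array far from the others (Dixon's criterion), 7 stood out, and chance gives about 1 in 20. In 3 the array was the 290 mOsm array of mouse 3, which was low for Nop56 (9.59, the others 9.84 to 9.9), Nop14 (8.38, the others 8.53 to 8.56) and Noc3l (8.36, the others 8.53 to 8.55). The 450 mOsm with LPS array of mouse 3 was low for Bysl (6.8, the others 7 to 7.01) and high for Wdr12 (6.92, the others 6.53 to 6.54). Mouse 1 was high for Npm1 at 290 mOsm with LPS (9.96, the others 9.76 to 9.79) and for Rrp1b at 450 mOsm (7.44, the others 7.21 to 7.23).

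The LPS change differed between 450 and 290 mOsm by limma's interaction term for 9 members. The differences were 0.57 for Myc, 0.65 for Nop58, 0.41 for Dkc1 (adjusted p = 0.0114), 0.35 for Gar1 (adjusted p = 0.0244), 0.47 for Gnl3 (adjusted p = 0.026), 0.28 for Wdr75 (adjusted p = 0.0455), 0.68 for Rrs1, 0.56 for Rrp1b and 0.29 for Noc3l (adjusted p = 0.0166). The call was lost in at least 1 alternative for 6 of them (Wdr75 in 21, Gnl3 in 8, Gar1 in 5, Rrs1 in 4, Dkc1 in 3 and Noc3l in 2). Dkc1 differed by 0.74 in mice 2 and 4 and by 0.07 in mice 1 and 3, and its means in both LPS groups (6.2 and 6) were below the filter level.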

How the results depend on the processing

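No called value reversed under any alternative run. For salt without LPS, 1 member (Bop1) was called higher, in place of 0, under the stricter filter, quantile normalization, cyclic loess and the mouse as a fixed or random replicate block, and leaving out a mouse or an array gave 0 to 1 higher and 19 to 27 lower in place of 26. For salt with LPS, the stricter filter (a log2 value of 7.81) left 26 members tested. It gave 0 members higher in place of 1, because Rrp1b did not pass that filter and was not tested. Leave-outs gave 0 to 1 higher and 9 to 16 lower. For LPS at 290 mOsm, 2 members were higher under quantile normalization, cyclic loess and a fit of only the groups compared. Cyclic loess moved the members' median to -0.49 at 290 mOsm and to -0.49 at 450 mOsm. For the interaction, leave-outs gave 3 to 13 members positive and 0 to 1 negative. With the mouse as a replicate block, the interaction count was 11. The block added Bop1 and Polr1b (salt without LPS), Fbl (salt with LPS) and Nop56, Tsr1 and Polr1b (interaction), removed Myc (salt with LPS) and Wdr75 (interaction), and changed no other member's call. Where no cause is named, the cause was not tested.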
